A study of Mus musculus with 5 samples.

Results

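The genes described here are the cone opsins and the other proteins of cone phototransduction, followed in the retinas of diabetic and control mice. The set was fixed by name and holds 10 genes, Opn1sw, Opn1mw, Arr3, Gnat2, Gnb3, Gngt2, Pde6c, Pde6h, Cnga3 and Cngb3. Of these, 9 had a probe set (the group of array probes read out as 1 value) annotated to that gene alone. The array held 18194 such genes in all. Of the 9, 8 were bright enough to be tested. Cnga3 is not analysed here. Diabetic replicates 1 and 2 were each a pool of 4 retinas of 2 mice with diabetes of 5 weeks after streptozotocin, a toxin of the beta cells that make insulin. Diabetic replicate 3 was a pool of 6 retinas of 3 mice with diabetes of 3 to 4 weeks, for which the means of induction is not named. The 2 control pools each held 4 retinas of 2 mice of the same age, left untreated and with normal blood glucose. The labels state no strain, sex or age in weeks, and no transgene for any group. Each pool was read on 1 whole-genome Affymetrix array, so an array is 1 pool. The spread between arrays holds differences between pools and between array measurements, which cannot be told apart.

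Cones are the photoreceptors of daylight and colour vision and are a small minority of photoreceptors in the mouse retina, where rods dominate. An opsin that absorbs light activates the G protein transducin, transducin takes the inhibitory subunit off a cyclic GMP phosphodiesterase, and the fall of cyclic GMP closes a cation channel of the outer segment, which hyperpolarises the cell. Rods run the same cascade with paralogous proteins, and an arrestin ends the response in both cell types. Mouse cones carry a short-wavelength opsin, an ultraviolet pigment, and a middle-wavelength opsin, and many cones hold both, in proportions that change from the dorsal to the ventral retina.

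Upstream sequences of 4 genes are shown because these genes mark the cell type or, for Pde6h, because its groups did not overlap below. They are the 250 bases before the annotated start, from RefSeq on GRCm38.p6, whose promoter table held 6 of the 10 genes. The arrays did not measure these sequences. Capitals mark TAATC, on either strand (GATTA on the other), the core of the sequence bound by Crx, the photoreceptor homeodomain factor measured below.
Opn1sw, chr6:29380514-29380763, minus strand: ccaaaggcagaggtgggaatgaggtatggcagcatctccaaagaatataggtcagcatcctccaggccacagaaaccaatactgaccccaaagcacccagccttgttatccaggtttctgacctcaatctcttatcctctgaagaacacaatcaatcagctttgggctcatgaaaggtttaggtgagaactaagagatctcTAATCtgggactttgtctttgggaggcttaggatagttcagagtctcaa
Opn1mw, chrX:74127216-74127465, plus strand: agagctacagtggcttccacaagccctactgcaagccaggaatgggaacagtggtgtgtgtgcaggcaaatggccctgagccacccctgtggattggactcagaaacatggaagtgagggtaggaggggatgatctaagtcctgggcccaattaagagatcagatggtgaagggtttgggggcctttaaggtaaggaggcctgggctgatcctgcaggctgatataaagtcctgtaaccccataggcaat
Arr3, chrX:100605247-100605496, plus strand: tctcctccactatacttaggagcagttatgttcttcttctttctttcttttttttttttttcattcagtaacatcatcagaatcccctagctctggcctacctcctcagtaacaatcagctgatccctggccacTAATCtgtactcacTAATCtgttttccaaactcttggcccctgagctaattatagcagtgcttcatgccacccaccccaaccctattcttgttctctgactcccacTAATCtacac
Pde6h, chr6:136954273-136954522, plus strand: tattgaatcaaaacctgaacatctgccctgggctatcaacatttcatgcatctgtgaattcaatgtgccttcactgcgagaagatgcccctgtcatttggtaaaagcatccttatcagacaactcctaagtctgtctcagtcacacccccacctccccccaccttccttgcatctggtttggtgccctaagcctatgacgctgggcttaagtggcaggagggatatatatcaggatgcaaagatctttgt
The Arr3 window held 3 matches, the windows of Opn1sw and Gnat2 (not printed) 1 each, and those of Opn1mw, Pde6h and Cnga3 (not printed) 0. Of all 32851 windows in the table, 19.8% held at least 1 match and 0.6% held 3 or more. A match describes these letters and is not a measured binding site.

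Whether transcripts of the cone cascade differ within weeks of diabetes was addressed by setting the diabetic pools against the controls. None of the 8 tested genes passed the test, and the 95% interval of the difference included 0 for all 8. The test was limma across 10916 genes, on log2(signal + 120.6) with Benjamini-Hochberg adjustment, and the adjusted p was 0.999 for each of these genes. By this rule 0% of all tested genes were called, and 3.39% had an unadjusted p under 0.05 (1.8% higher and 1.59% lower in diabetic pools), while 0 of the 8 cone genes did. Differences were positive for Opn1sw, Opn1mw, Arr3 and Gnat2 and negative for Gnb3, Pde6c, Pde6h and Cngb3, that is 4 of 8 in each direction, where 51.9% of all tested genes had a positive difference. Their median was 0.03 on the log2 scale, and the median over all tested genes was 0.0061. The groups did not overlap for 1 of the 8, against 18.1% of all tested genes. The pools are bulk tissue, so fewer cones and less cone RNA per cell cannot be told apart.

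**Figure D1:**
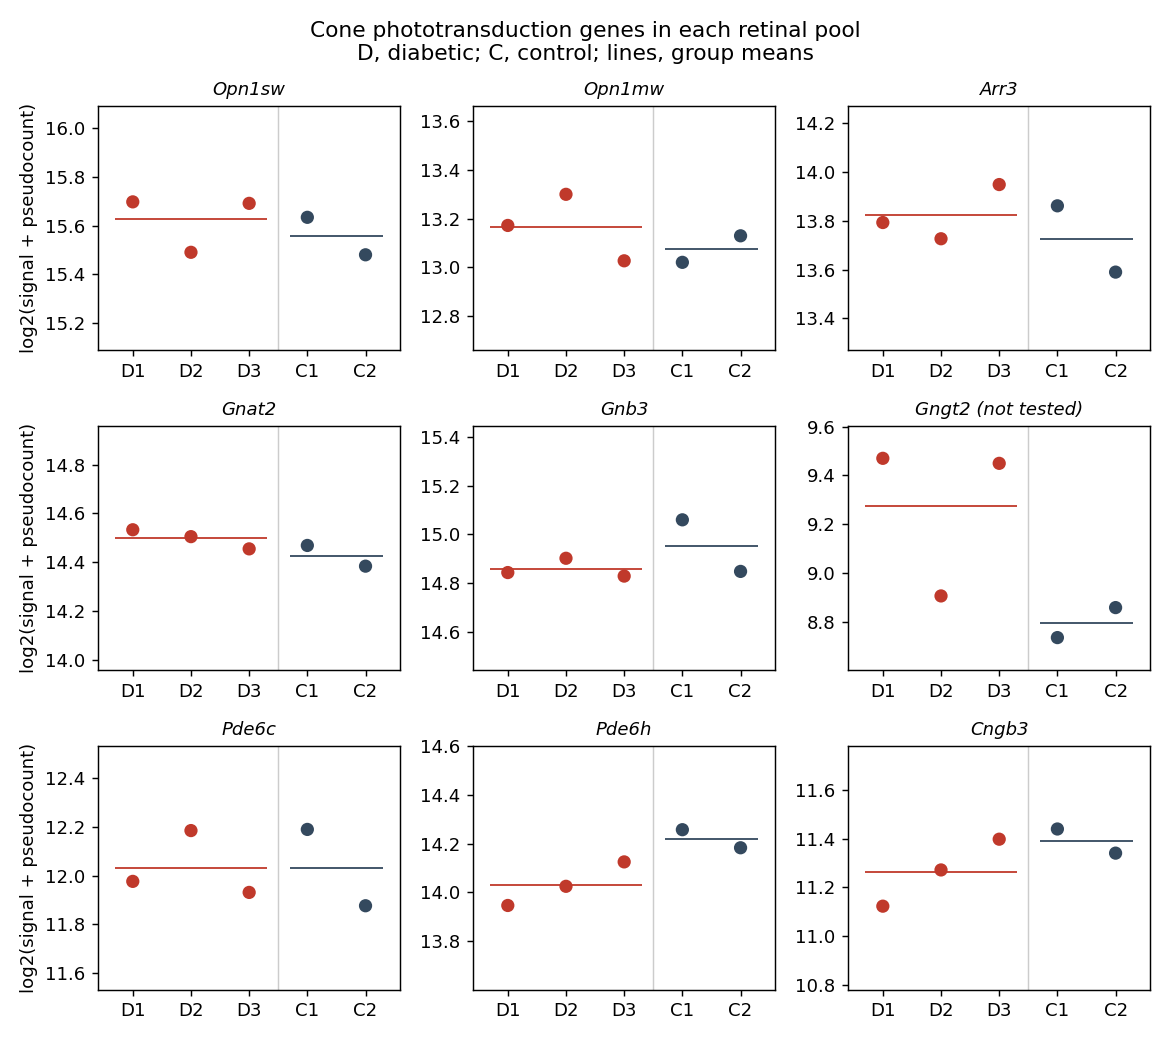
Level of the 9 measured cone genes in each pool, as log2(signal + 120.6), with diabetic pools (D) in red left of control pools (C) in dark grey, 1 point per pool and lines at the group means. Every panel spans 1 log2 unit on its own scale. The groups overlap in all panels except those of Pde6h and Gngt2.

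The opsins begin the cascade. Opn1sw, the short-wavelength pigment, had signals of 53012, 45924 and 52789 in diabetic replicates 1 to 3, against 50730 and 45598 in control replicates 1 and 2. The lowest values of both groups, in diabetic replicate 2 and control replicate 2, were close to each other, and the groups overlapped. The difference was 0.07 (SE 0.09), or 1.05-fold with a 95% interval from 0.914 to 1.20-fold. Leaving out control replicate 2 gave -0.0076, and leaving out control replicate 1 gave 0.15.

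Opn1mw, the middle-wavelength pigment, had signals of 9107, 9960 and 8226 in diabetic replicates 1 to 3, against 8190 and 8840 in control replicates 1 and 2. Diabetic replicates 1 and 2 lay above both controls and diabetic replicate 3 just above the lower control, so the groups overlapped. The difference was 0.09 (SE 0.10), or 1.07-fold (95% interval 0.903 to 1.26-fold), and it lay between 0.024, without diabetic replicate 2, and 0.16, without diabetic replicate 3.

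The opsins did not share 1 order of pools. The log2 ratio of Opn1mw to Opn1sw, centred on its mean over the 5 pools, was -0.06, 0.28 and -0.20 in diabetic replicates 1 to 3, against -0.14 and 0.12 in control replicates 1 and 2. Its difference between groups was 0.02, and the SD between pools was 0.24 in diabetic and 0.19 in control pools. Diabetic replicate 2, with the highest ratio, also had the highest 3' to 5' ratio of the beta-actin control probes, a measure of RNA integrity and labelling, at 4.32 against 2.01 to 2.71 in the other arrays. The same ratio of the Gapdh control probes set this array less apart, at 0.90 against 0.78 to 0.84 in the other arrays. The part of RNA quality in the opsin ratio was not tested.

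Arr3, the cone arrestin that binds light-activated, phosphorylated opsin and ends its signalling, had signals of 14074, 13434 and 15688 in diabetic replicates 1 to 3, against 14762 and 12209 in control replicates 1 and 2. The highest and lowest pools belonged to different groups, but the higher control exceeded diabetic replicates 1 and 2. The difference of 0.10 (SE 0.11) was smaller than the gap between the 2 control pools, which lay at 13.86 and 13.59 on the log2 scale. Leaving out control replicate 2 gave -0.039, and leaving out control replicate 1 gave 0.23.

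Transducin passes the signal on from the opsin. Gnat2, its cone alpha subunit, had signals of 23583, 23124 and 22331 in diabetic replicates 1 to 3, against 22549 and 21255 in control replicates 1 and 2. It was the steadiest of the tested cone genes, with a range of 0.15 over the 5 pools on the log2 scale. Of all tested genes, 9.83% had a smaller range. Its difference was 0.07 (SE 0.07), or 1.05-fold with an interval from 0.936 to 1.18-fold. Leaving out control replicate 2 gave 0.029, and leaving out control replicate 1 gave 0.11.

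Gnb3, the beta subunit that cones share with ON bipolar cells, had signals of 29278, 30496 and 28986 in diabetic replicates 1 to 3, against 34028 and 29376 in control replicates 1 and 2. Control replicate 1 stood above the other 4 pools, which were close together. The difference was -0.10 (SE 0.08), and leaving out control replicate 1 gave 0.0099, and leaving out control replicate 2 gave -0.20. Of the ON bipolar markers, 6 of 8 were measured and tested, with 3 higher and 3 lower in diabetic pools, and their summed signal ranged from 133656 to 162744 in diabetic and from 142665 to 150959 in control pools.

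Gngt2, the gamma subunit, lay below the level required for testing. Its signals were 589, 359 and 579 in diabetic replicates 1 to 3, against 306 and 344 in control replicates 1 and 2, where the median signal of an array was 634.6 to 714.7. All 3 diabetic pools were above both controls, with diabetic replicate 2 just above them and the other two well above. The log2 difference was 0.48, and a fit of all genes without the filter on dim genes gave an SE of 0.29 and a 95% interval from -0.19 to 1.15 (limma, adjusted p = 0.9997). With a pseudocount of 1 in that fit it was 0.61, or 1.53-fold (limma, adjusted p = 0.999). With single arrays left out of the unfiltered fit the difference lay between 0.38, without diabetic replicate 1, and 0.66, without diabetic replicate 2, and the adjusted p between 0.900 and 0.9998 (limma). These fits were added after the values had been seen. Among all tested genes, which are brighter and leave out Gngt2, 9.99% had diabetic values all above the control values. That share was not computed for dim genes.

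The phosphodiesterase lowers cyclic GMP. Pde6c, its cone catalytic subunit, had signals of 3908, 4533 and 3784 in diabetic replicates 1 to 3, against 4548 and 3639 in control replicates 1 and 2. The control pools held both the highest and the lowest value. The difference was -0.0022 (SE 0.13), with an interval from 0.808 to 1.23-fold, and its sign was not stable. Leaving out control replicate 1 gave 0.15, leaving out diabetic replicate 1 gave 0.025, and leaving out diabetic replicate 3 gave 0.048, while it was -0.16 with control replicate 2 left out.

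Pde6h, the inhibitory gamma subunit of the cone enzyme, had signals of 15671, 16553 and 17751 in diabetic replicates 1 to 3, against 19461 and 18482 in control replicates 1 and 2. All 3 diabetic pools were below both controls, which 8.15% of all tested genes also showed. The difference was -0.19 (SE 0.08), or 0.878-fold with a 95% interval from 0.769 to 1.002-fold. Its unadjusted p was 0.0525 and its adjusted p 0.999 (limma). Of all tested genes, 82.9% had a smaller difference in size. The difference was -0.27 between the mean of diabetic replicates 1 and 2 and control replicate 1, and -0.06 between diabetic replicate 3 and control replicate 2. The second of these pairs is made of the arrays with high skeletal muscle signal. Diabetic replicate 3, the pool of shorter diabetes, was 0.14 above the mean of diabetic replicates 1 and 2. The summed signal of pigment epithelium markers was also lower in every diabetic pool, while that of melanosome (pigment granule) genes was not, as given below. The part of either in the Pde6h difference was not tested.

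Cngb3, the beta subunit of the cone cyclic nucleotide-gated channel, had signals of 2110, 2352 and 2578 in diabetic replicates 1 to 3, against 2657 and 2473 in control replicates 1 and 2. Diabetic replicates 1 and 2 were below both controls and diabetic replicate 3 was between them. The difference was -0.13 (SE 0.13), or 0.917-fold (95% interval 0.745 to 1.13-fold), and it lay between -0.19, without diabetic replicate 3, and -0.055, without diabetic replicate 1.

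**Figure D2:**
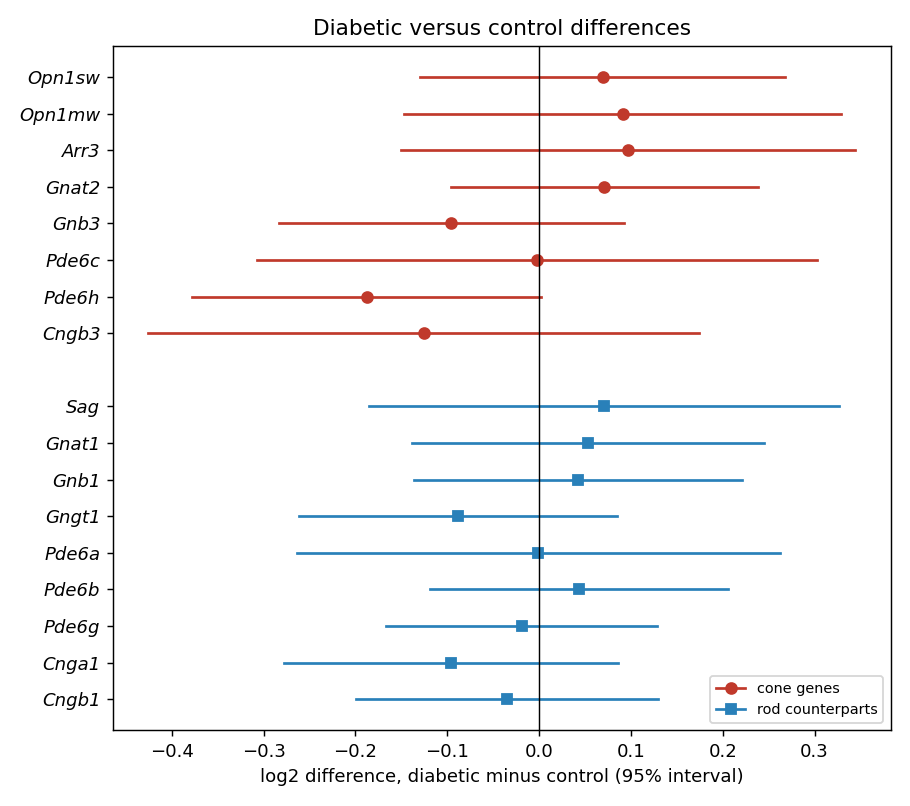
Log2 difference, diabetic minus control, of the 8 tested cone genes (red circles) and 9 rod counterparts (blue squares), with 95% intervals from limma. All intervals include 0, and that of Pde6h, from -0.38 to 0.0026, barely does.

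A total of 13 probe sets covered the 9 measured genes, and 3 genes had more than 1. The 2 probe sets of Pde6h gave the same direction. The second, 1450765_a_at, had signals of 13368, 13795 and 13857 in diabetic replicates 1 to 3, against 16939 and 16411 in control replicates 1 and 2. It differed by -0.28 (SE 0.08), with no overlap of the groups and a 95% interval from -0.46 to -0.11. In this fit over all 20975 probe sets above the filter its unadjusted p was 0.00615 and its adjusted p 0.9999 (limma). Of all tested probe sets, 8.62% had all diabetic values below the controls, 8.58% had them all above, and 0% passed the test. Both probe sets read the same 5 pools, so they are not independent replicates.

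The 3 probe sets of Arr3 all had positive differences, 0.10, 0.07 and 0.19, but not the same order of pools. The probe sets 1450329_a_at and 1425232_x_at were highest in diabetic replicate 3 and lowest in control replicate 2. The third, 1441144_at, was highest in diabetic replicate 2, at 8213, and lowest in control replicate 1, at 5680. An x_at probe set is one whose probes may also bind other transcripts.

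The probe sets of Opn1sw differed in sign. The brighter, 1449132_at, is the one described above. The dimmer, 1418552_at, had signals of 2202, 1512 and 2888 in diabetic replicates 1 to 3, against 2163 and 2232 in control replicates 1 and 2, a difference of -0.042 (SE 0.24). Its lowest and highest values were both in diabetic pools, and the lowest belonged to the array with the high beta-actin ratio.

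**Figure D3:**
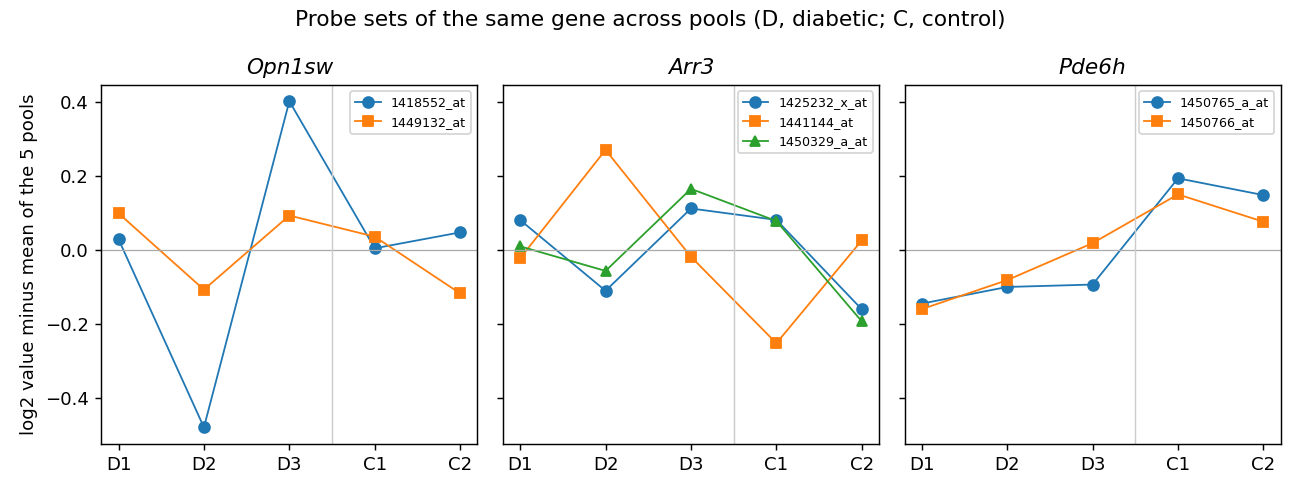
Log2 values of each probe set of Opn1sw, Arr3 and Pde6h, centred on the mean of the 5 pools, with diabetic pools (D) left of control pools (C); lines only join the points of 1 probe set. Both Pde6h probe sets lie lower in every diabetic pool, while 1 Arr3 probe set peaks in another pool than the other two and the dim Opn1sw probe set varies most within the diabetic group.

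Apart from Pde6h and Gngt2, the measured cone genes overlapped between the groups. Control replicate 1 held the highest value of 4 of the 9 measured genes and control replicate 2 the lowest value of 4. The median cone profile, centred on the 5 pools, was 0.01, -0.04 and 0.02 in diabetic replicates 1 to 3, against 0.08 and -0.09 in control replicates 1 and 2. The control pools were thus farther apart than any diabetic pool was from another. The median range of the 8 tested genes over the 5 pools was 0.29 on the log2 scale, against 0.32 over all tested genes. With control replicate 2 left out, 2 of the 8 genes had positive differences in place of 4, and the median difference was -0.10. With control replicate 1 left out, 6 were positive.

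Of the 9 measured cone genes, 5 differed in sign between the arrays of high and of low muscle signal, namely Opn1sw, Opn1mw, Arr3, Pde6c and Cngb3, and 4 had the same sign, namely Gnat2, Gnb3, Gngt2 and Pde6h. The same share over all tested genes was not computed, so the count is not read as a trait of cone genes. Between diabetic replicate 3 and control replicate 2, the arrays of high muscle signal, Arr3 differed by 0.36, Opn1sw by 0.21, Opn1mw by -0.10, Pde6c by 0.055 and Cngb3 by 0.057. Between the mean of diabetic replicates 1 and 2 and control replicate 1, Arr3 differed by -0.10, Opn1sw by -0.040, Opn1mw by 0.21, Pde6c by -0.11 and Cngb3 by -0.24. Each set has a single control pool, and duration of diabetes differs between the sets too, so muscle, duration and pool cannot be told apart.

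Rod counterparts, the paralogous genes of the rod cascade, were followed in the same pools. The pools are bulk tissue, so the signal of such a gene need not come from rods alone. The 9 measured here were Sag, the rod arrestin, the transducin subunits Gnat1, Gnb1 and Gngt1, the phosphodiesterase subunits Pde6a, Pde6b and Pde6g, and the channel subunits Cnga1 and Cngb1. None passed the test, with 4 higher and 5 lower in diabetic pools and differences between -0.10 and 0.07. Their median profile was 0.02, -0.08 and 0.05 in diabetic replicates 1 to 3, against 0.08 and -0.10 in control replicates 1 and 2, so control replicate 1 was again highest and control replicate 2 lowest. Other probe sets of these genes did not all give the same difference. Gnb1 differed by 0.04, its probe set 1417432_a_at by -0.01 and the dimmer 1425908_at by -1.39, with a signal of 51 in diabetic replicate 2. Gngt1 differed by -0.09, 1425167_a_at by -0.03, 1425168_at by -0.05 and 1425219_x_at by 0.12. The second Pde6g probe set, 1450453_a_at, differed by 0.0032.

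The ratio of a cone gene to its rod counterpart, on the log2 scale within each array, takes out what both share. The ratio of Arr3 to Sag differed by 0.03 between groups, that of Gnat2 to Gnat1 by 0.02, that of Gnb3 to Gnb1 by -0.14 and that of Cngb3 to Cngb1 by -0.09. The groups overlapped in each of these. Pde6c differed by -0.0015 relative to Pde6a and by -0.05 relative to Pde6b, again with overlap.

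The ratio of Pde6h to Pde6g, centred on the 5 pools, was -0.18, -0.04 and 0.02 in diabetic replicates 1 to 3, against 0.07 and 0.13 in control replicates 1 and 2. It was lower in every diabetic pool, by -0.17 in the mean, while Pde6g itself differed by -0.02 (SE 0.06). The ratio of the dim Gngt2 to Gngt1 was 0.48, -0.12 and 0.31 in diabetic replicates 1 to 3, against -0.48 and -0.20 in control replicates 1 and 2, a difference of 0.57. These ratios were not tested, and the share of other gene pairs whose ratio separates the groups was not computed. They reuse the Pde6h and Gngt2 values given above, so they are no separate evidence of a difference.

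**Figure D4:**
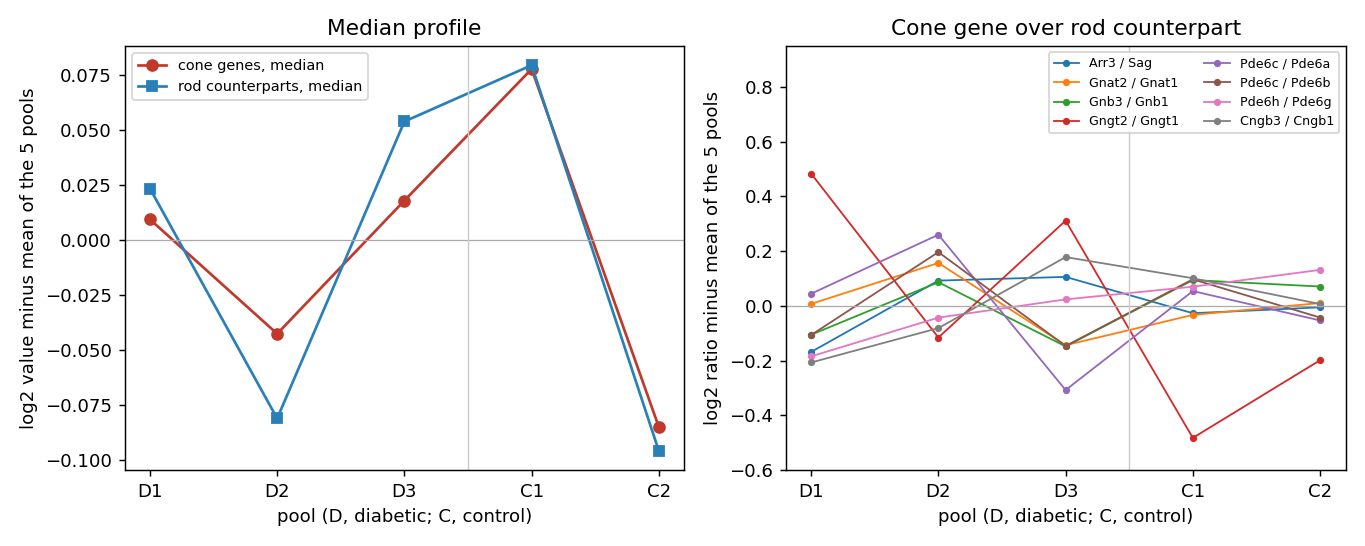
Left, median log2 profile of the 9 measured cone genes (red circles) and the 9 rod counterparts (blue squares) over the pools, centred on the mean of the 5 pools. Right, centred log2 ratio of each cone gene to its rod counterpart. Diabetic pools (D) are left of control pools (C), and lines only join points. Both medians are highest in control replicate 1 and lowest in control replicate 2, and the Gngt2 ratio has the widest spread.

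The remaining genes of the cone response were followed in a list of shutoff and calcium feedback genes, most of which rods use too. Of 12 genes, 11 were measured and 10 tested, and 0 passed, with 6 higher and 4 lower and a median of 0.04. Groups did not overlap for 2 higher genes and 1 lower gene, where 9.99% of all tested genes were higher and 8.15% lower without overlap. The 3 of smallest p were Rgs9, Rgs9bp and Slc24a2. Rgs9, which speeds the GTP hydrolysis of transducin, had signals of 3781, 3749 and 3223 in diabetic pools, against 4303 and 3947 in control pools, a difference of -0.20 (SE 0.12). Of its other probe sets, 1418691_at differed by -0.18 and the dimmer 1426033_at by 0.23, both without overlap of the groups. Rgs9bp, its membrane anchor, had signals of 58842, 54535 and 58904 in diabetic pools, against 52565 and 54172 in control pools, a difference of 0.10 (SE 0.07). Slc24a2, the sodium, calcium and potassium exchanger of cones, had signals of 4654, 6222 and 4628 in diabetic pools, against 4615 and 4122 in control pools, a difference of 0.23 (SE 0.15). Only diabetic replicate 2 stood clearly above the controls for this Slc24a2 probe set. The dim second one, 1453885_at, had signals of 409, 345 and 290 in diabetic pools, against 348 and 64 in control pools. It differed by 0.67, with overlap of the groups, and lay below the filter.

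A list of photoreceptor fate factors and other cone-enriched genes held 14 genes, of which 13 were measured and 11 tested. None passed, with 5 higher and 6 lower and a median of -0.01. Groups did not overlap for 2 lower genes and 0 higher genes, where 8.15% of all tested genes were lower and 9.99% higher without overlap. An unadjusted p under 0.05 (limma) was found for 2 of the 11, against 3.39% of all tested genes. The 3 of smallest p were Rorb, Crx and Nrl. Rorb, a nuclear receptor of photoreceptor development, had signals of 14695, 17813 and 14969 in diabetic pools, against 19739 and 19486 in control pools. Every diabetic pool was below both controls, by -0.31 in the mean (SE 0.10, limma unadjusted p = 0.0122, adjusted p = 0.999). Its probe set 1455799_at differed by -0.32 and 1425162_at by 0.10.

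Crx had signals of 62585, 67141 and 66343 in diabetic pools, against 74016 and 72893 in control pools. The groups did not overlap, and the difference was -0.17 (SE 0.06, limma unadjusted p = 0.0268, adjusted p = 0.999). Its second probe set, 1449185_at, overlapped between groups and differed by 0.11. Nrl, the leucine zipper factor of rod fate, differed by 0.07 (SE 0.08).

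Tissue from outside the neural retina varied between the pools. The summed signal of 8 skeletal muscle genes ranged from 4603 to 65730 in diabetic and from 4933 to 44949 in control pools, and was high in diabetic replicate 3 and control replicate 2. The sum of 6 pigment epithelium genes ranged from 47463 to 73654 in diabetic and from 91688 to 137249 in control pools. Ttr alone made up most of it in every pool, such as 40717 of 47625 in diabetic replicate 1 and 101561 of 137249 in control replicate 2. The sum was highest in control replicate 2, where the cone and rod medians were lowest. Control replicate 1 came next, and there both medians were highest. The sum of 5 melanosome genes did not separate the groups. It was 22144, 2672 and 13660 in diabetic replicates 1 to 3, against 4684.5 and 18348 in control replicates 1 and 2. The 3 melanosome genes tested had a median difference of 0.0056. For the 5 tested pigment epithelium genes all diabetic values lay under both control values, as for 8.15% of all tested genes. Their median difference was -1.49, and all 5 had an unadjusted p under 0.05 (limma), against 3.39% of all tested genes, while 0 passed the test after adjustment. All 5 lens markers were below the filter, as was Best1 of the pigment epithelium, while the 5 measured rod markers were all above it. When the fit took muscle signal as a block, Pde6h differed by -0.18, Gnb3 by -0.11, Cngb3 by -0.11 and Pde6c by -0.039. In that fit Arr3 differed by 0.096, Opn1mw by 0.079, Opn1sw by 0.067 and Gnat2 by 0.059. What these tissues contribute to the cone values was not tested.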

How the data were processed

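Total retinal RNA was measured on 5 arrays, 3 of diabetic and 2 of control pools. The deposited values are signal intensities on a linear scale, 1 for each of 45101 probe sets. Leaving out the lowest and highest 2% of values, every column had a mean of 2500.0. The software that made them is not given in the sources used here. Background correction of dim probe sets is therefore unknown. The number of arrays limits the precision.

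Probe sets with exactly 1 symbol (34958, symbols updated by Entrez ID through RefSeq GRCm38.p6) were used, and the one of highest mean stood for each gene. The pseudocount of 120.6 is the 20th percentile of all values, and it makes the log2 differences of dim genes smaller. The upper 60% of genes by mean were tested with limma (lmFit, eBayes with a trend, 3 residual degrees of freedom, threshold 0.05), and the steps were tested on simulated data. Alternatives were 2 normalizations, 2 pseudocounts, 2 filters, probe set means, 2 variance models, blocks and arrays left out. The genes and lists were chosen with earlier results of these data known. All members and rod counterparts are named, and the 3 genes of smallest p in each further list. Nothing in the labels ties pools to litters or dates. R 4.3.3, limma 3.58.1 and matplotlib 3.10.9 were used.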

Additional observations from a re-analysis of the deposited data

How the results depend on the processing

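None of the 8 tested cone genes passed under any of the 17 alternatives, where their adjusted p (limma) ran from 0.852 to 0.99999, and only Cngb3 was left untested, by the filter at the upper 40%. Pde6h, Opn1mw, Gnat2 and Cngb3 kept their sign in all alternatives that tested them, Pde6h between -0.27 and -0.14. Without both arrays of high muscle signal, Arr3 differed by -0.10, Opn1sw by -0.040, 2 genes were higher and the median of the 8 was -0.11. Pde6c differed by 0.00023 with quantile normalization, 0.041 with median centring and 0.048 with a replicate block. With single arrays left out, Arr3 lay between -0.039 and 0.23, Gnb3 between -0.20 and 0.0099, Opn1sw between -0.0076 and 0.15, Pde6c between -0.16 and 0.15, the count of higher genes between 2 and 6 and their median between -0.099 and 0.075. Over all genes, 0 were called, 2 with a replicate block, 2 without both muscle arrays, and 0 to 1 with single arrays left out. The deviations of same-numbered pools from their group means correlated at 0.131 for replicate 1 and -0.141 for replicate 2 across genes. With 2 control pools the control deviations are equal and opposite, so these values cannot show whether the pools were paired. The replicate block leaves out diabetic replicate 3, which has no partner. The cause of these changes was not tested.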
